A study of Mus musculus with 6 samples.

Results

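The 10 genes described here encode subunits of the Polycomb repressive complexes: Ezh1, Ezh2, Eed, Suz12, Jarid2 and Mtf2 of PRC2, and Ring1, Rnf2, Bmi1 and Cbx2 of PRC1. They were chosen by name as subunits of these complexes, and all 10 are among the 16982 genes of the count table and among the 13386 genes tested. RNA was sequenced from 3 WT and 3 Rnf20 knockout libraries of C57BL/6 reprogrammable cells on day 3. These were mouse embryonic fibroblasts (MEF) that in both genotypes had been infected with retroviruses carrying the reprogramming factors OCT4, SOX2, KLF4 and C-MYC. The knockout cells came from embryos with loxP sites in both Rnf20 alleles (Flox/Flox) and a ubiquitous Cre induced by 4-OH tamoxifen. The labels list every sample as without treatment, and whether WT cells received the drug is not stated in the sources used here. Infected cells were replated on mitomycin C-treated MEF feeders according to the study's methods, so RNA of feeder cells can be part of each library, and its share was not tested. The labels do not say whether the 3 libraries of a genotype came from separate embryos or cultures, so the p-values measure only the spread between these libraries, which in WT may be technical.

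PRC2 places methyl groups on lysine 27 of histone H3 (H3K27). EZH2 or its paralogue EZH1 is the catalytic subunit, EED and SUZ12 complete the core, and accessory subunits such as JARID2 and MTF2 help to bring the complex to chromatin. PRC1 ubiquitinates histone H2A through RING1 or RNF2, paired with a PCGF protein such as BMI1, and CBX proteins such as CBX2 bind methylated H3K27. In fibroblasts both complexes are known to hold developmental genes and the Cdkn2a and Cdkn2b locus silent. RNF20 is an E3 ligase for another histone mark, ubiquitinated H2B.

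The libraries held 20545442 to 21746898 counts, of which 3 counts, taken as the floor, equal a CPM (a count scaled by the library total) of 0.138 to 0.146. All other CPM values are scaled to library sizes normalized by the TMM method. Rnf20 itself lay at 106 to 107 CPM in WT and at 16.4 to 18.7 CPM in the knockout libraries, 16.8% of the WT mean. Knockout replicate 3 stood apart from the other 2 knockout libraries, with a chi-square per gene of 92.4 and 101 against them, where replicate pairs otherwise gave 6.04 to 8.91. Ddx3y, a Y-linked gene, lay between 94.4 and 128 CPM in 4 libraries but had 0 counts in replicates 1 and 3 of the knockout, so knockout replicate 2 did not share a culture with those. All 10 Polycomb genes are autosomal, but whether the Ddx3y difference between libraries bears on their values, or on other genes named below, was not tested. The summed CPM of 7 fibroblast markers, mostly that of 3 collagen genes, was 26514 to 28931 in WT and 17320 to 32617 in the knockout. Of the 7, 2 fell, Thy1 (log2 fold change -1.11, adjusted p = 0.00251, edgeR) and Pdgfra (-1.22, adjusted p = 0.0185), 0 rose, and Vim had 0.29 (adjusted p = 0.0577). Of the pluripotency markers, Nanog lay at 0.903, 2.23 and 0.902 CPM in WT and at 0.811, 0.617 and 0.286 CPM in the knockout (adjusted p = 0.125, edgeR), and the 3 others were below the floor in every library. Epithelial markers summed to 41.4 to 43.1 CPM in WT and to 33.4, 23.3 and 3.14 CPM in knockout replicates 1 to 3 (0 of 4 tested passed in edgeR, with 2 lower at an unadjusted p under 0.05). Macrophage markers summed to 17.4 to 30.7 CPM in WT and 22.9, 17.5 and 63.6 CPM in the knockout. In knockout replicate 3 Adgre1 alone gave 31.9 CPM, and Ptprc (4.91), Csf1r (12.2), Fcgr1 (1.33) and Tyrobp (4.67 CPM) also exceeded every WT library. The highest WT values of Ptprc, Csf1r, Fcgr1 and Tyrobp were 3.09, 7.83, 1.19 and 3.84 CPM. Only Cd68 (8.57 CPM in knockout replicate 3) lay within its WT range. Endothelial markers summed to 48.3 to 59.0 CPM in WT and 66.9, 53.6 and 32.3 CPM in the knockout, nearly all of it Tek, with Cdh5 near 0. Pecam1, not among the genes tested, was below the floor in WT (0 to 0.0951 CPM) and at 0.475 to 0.525 CPM in the knockout. None of the 6 macrophage or 2 endothelial markers tested passed in edgeR, 0 of them at an unadjusted p under 0.05. The part of such cells in the Polycomb results was not tested.

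Ezh2, Jarid2 and Cbx2 were lower in the knockout, to 41.3%, 47.0% and 42.5% of their WT means. The other 7 genes did not pass an adjusted p of 0.05 (quasi-likelihood test of edgeR, Benjamini-Hochberg over the 13386 genes), and their log2 fold changes (knockout over WT) lay between -0.27 and 0.31. No member passed in the higher direction. Ezh1 was the 1 member higher at an unadjusted p under 0.05, and DESeq2 and edgeR's exact test also passed 0 members as higher. Over all genes tested, 16.6% passed as lower and 16.4% as higher (2218 and 2195 genes), and with scaling by library size only the counts were 2684 and 1750. The median log2 fold change of the 10 genes was -0.20, beside -0.0003 over all genes, and the median absolute log2 fold change was 0.27, beside 0.316. By the study's own thresholds, only Cbx2 of the 10 passed in the quasi-likelihood test, where 2.08% of all genes passed as lower and 1.5% as higher. These were an adjusted p under 0.01, a change of over 1 on the log2 scale and an FPKM averaging over 1 in either genotype. Ezh2 and Jarid2 also met them in DESeq2 (log2 fold change -1.27 and -1.08, adjusted p = 0.0004 and 5.74e-05). Both did so in edgeR's exact test too (-1.28 and -1.09, adjusted p = 0.00118 and 0.000132). The share of all genes meeting them in those 2 tests was not counted. No knockout library reached the lowest WT library for 5 members (Ezh2, Jarid2, Cbx2, Suz12 and Mtf2) and none came down to the highest WT library for 2 (Ezh1 and Eed). The same separation occurred for 28.2% (lower) and 26.6% (higher) of all genes. Without knockout replicate 3, Ezh2, Jarid2 and Cbx2 again passed as lower and 1 member, Eed, passed as higher. In that fit 3280 of the 13529 genes tested passed as lower and 3230 as higher, more than the 2218 and 2195 of the main fit. In bulk RNA, fewer cells of a type that expresses a gene and less RNA of it per cell cannot be told apart.

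**Figure D1:**
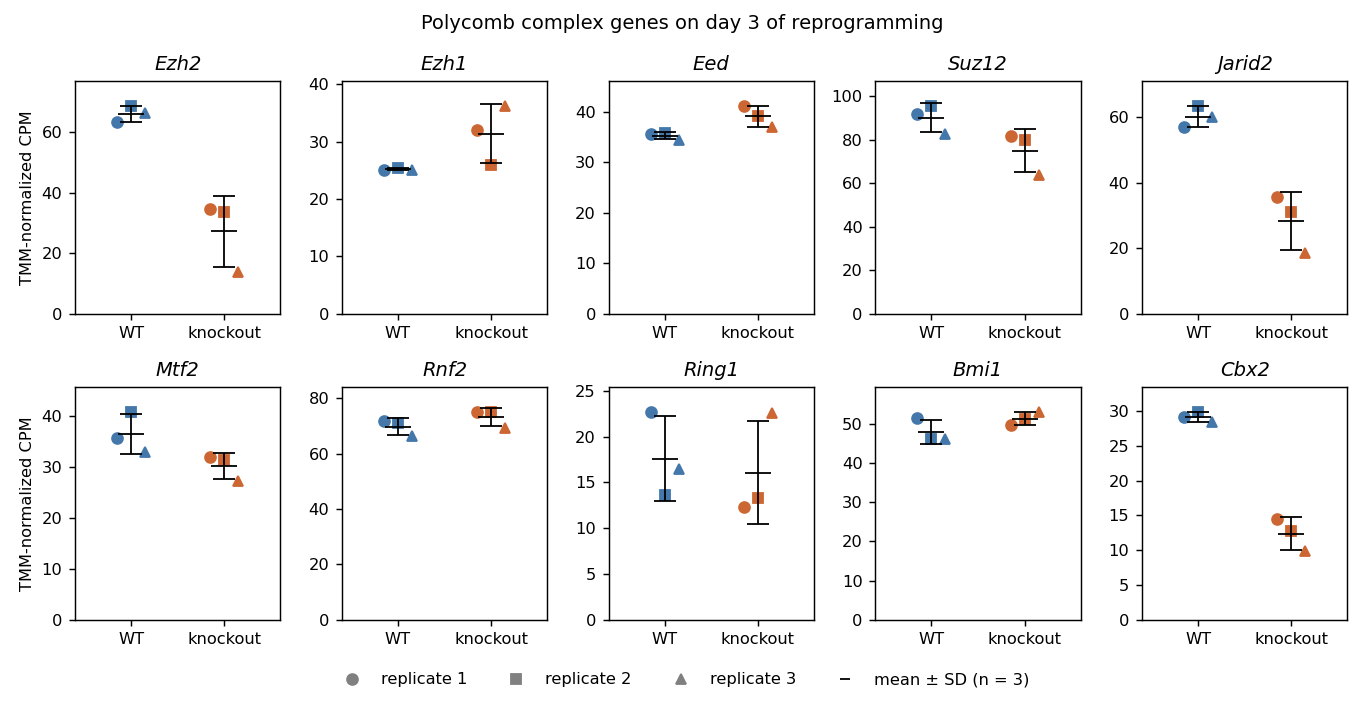
TMM-normalized CPM (vertical axes, each from 0) of the 10 Polycomb genes in WT (blue) and Rnf20 knockout (orange) libraries, with the marker shape giving the replicate and the bars the mean ± SD of 3 libraries. The knockout libraries lie far below WT for Ezh2, Jarid2 and Cbx2 and overlap WT for Rnf2, Ring1 and Bmi1.

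Of the catalytic pair of PRC2, Ezh2 (ENSMUSG00000029687, GRCm38 chr6:47530139-47595341, minus strand), the form most abundant in dividing cells, had 63.4, 68.7 and 66.3 CPM in WT replicates 1 to 3 and 34.5, 33.7 and 13.8 CPM in knockout replicates 1 to 3. The groups did not overlap, and knockout replicate 3 lay well under the other 2. The means were 66.1 ± 2.66 CPM in WT and 27.3 ± 11.7 CPM in the knockout (SD, n = 3 each), a log2 fold change of -1.28 (SE 0.321, 95% interval -2.04 to -0.51, adjusted p = 0.0258, edgeR). Without knockout replicate 3 the log2 fold change was -0.95 (adjusted p = 3.56e-06, edgeR). With each WT library left out in turn the call was lost, at adjusted p of 0.0728, 0.0849 and 0.0854 (edgeR). Ezh1 (ENSMUSG00000006920, GRCm38 chr11:101191115-101226463, minus strand), is the form known from cells that divide little. It had 25.1, 25.5 and 25.2 CPM in WT and 32.0, 26.0 and 36.2 CPM in the knockout, all 3 above WT, with knockout replicate 2 the nearest to it. Its log2 fold change of 0.31 (SE 0.128, 95% interval 0.0093 to 0.62) did not pass (adjusted p = 0.102, edgeR), and without knockout replicate 2 it did, at 0.44 (adjusted p = 0.0304).

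The balance between the paralogues was compared per length, as RPKM computed from the counts with the deposited gene lengths. Ezh2 made up 79.2%, 80.3% and 79.9% of the summed RPKM of Ezh1 and Ezh2 in WT and 61.9%, 66.2% and 36.4% in the knockout. In knockout replicate 3 Ezh1 was therefore the more abundant of the pair, and in the other 5 libraries Ezh2 was. The log2 ratio of Ezh2 to Ezh1 was 1.98 ± 0.0479 in WT and 0.29 ± 0.956 in the knockout (SD, n = 3 each), a difference of -1.69 with non-overlapping groups. A two-sided exact permutation test over the libraries gave p = 0.1, the smallest that 3 against 3 allows. In the deposited FPKM the difference was -1.79, and without knockout replicate 3 it was -1.15.

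**Figure D2:**
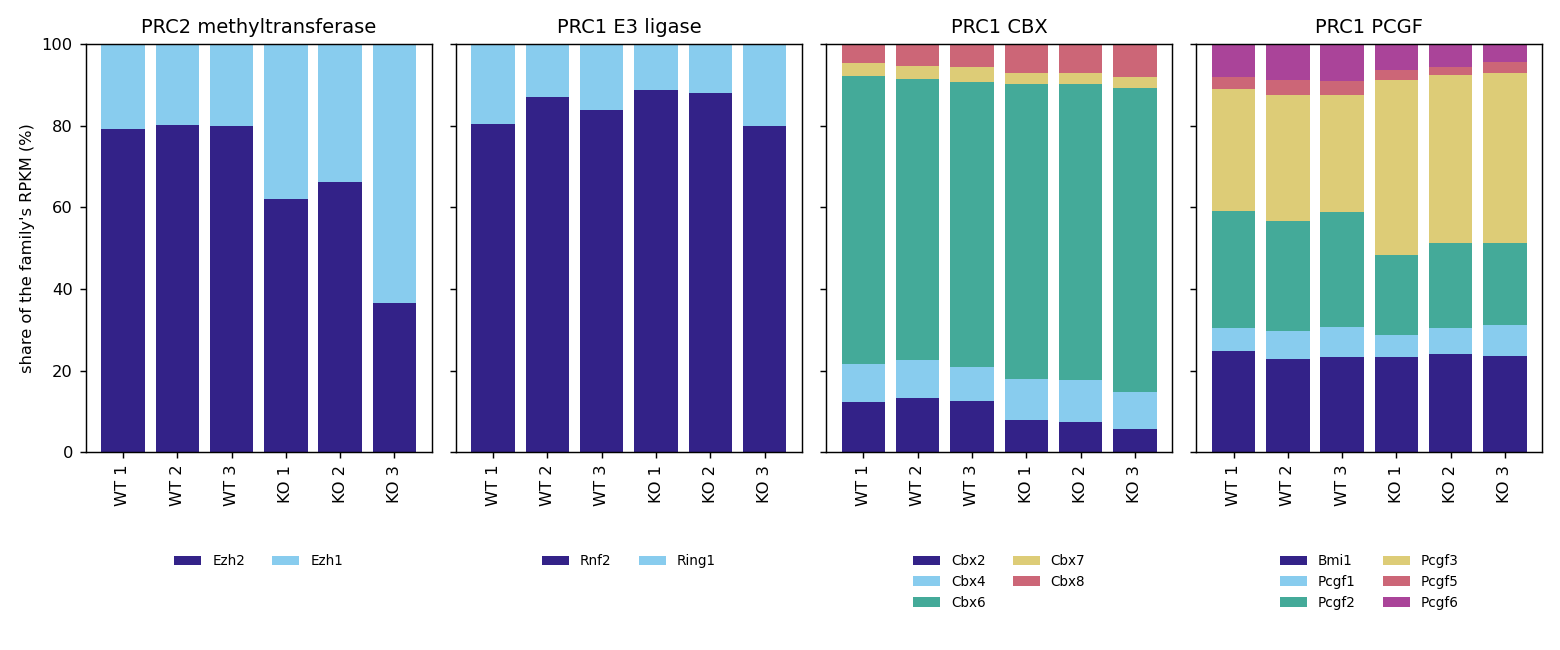
Share of each paralogue (percent, vertical axis) in the summed RPKM of its family for each WT and knockout (KO) library, from the PRC2 methyltransferases to the PCGF subunits of PRC1. The Ezh2 share is 79.2% to 80.3% in the WT bars and 36.4% in KO 3, while Bmi1 holds a like share of the PCGF family in all 6 bars.

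The promoters of Ezh2 and Suz12 are shown with the E2F words they hold. E2F factors drive S-phase genes and are known to bind such short words in promoters. The windows run from 240 bases before to 29 bases after the start site, with E2F words in capitals (RefSeq, GRCm38.p6). Ezh2 is at chr6:47595001-47595270 on the minus strand and Suz12, the other member with such a word, at chr11:79992866-79993135 on the plus strand.
Ezh2: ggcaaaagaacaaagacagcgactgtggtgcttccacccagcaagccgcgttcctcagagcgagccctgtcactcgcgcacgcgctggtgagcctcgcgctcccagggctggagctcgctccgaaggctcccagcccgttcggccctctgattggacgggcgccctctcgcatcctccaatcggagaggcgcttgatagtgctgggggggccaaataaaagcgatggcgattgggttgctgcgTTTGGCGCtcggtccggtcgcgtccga
Suz12: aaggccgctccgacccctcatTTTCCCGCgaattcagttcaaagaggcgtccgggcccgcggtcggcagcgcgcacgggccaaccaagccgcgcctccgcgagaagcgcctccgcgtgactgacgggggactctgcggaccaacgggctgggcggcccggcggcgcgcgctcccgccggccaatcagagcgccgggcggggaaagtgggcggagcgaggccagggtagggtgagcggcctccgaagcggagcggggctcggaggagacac
The words searched on both strands were TTTCCCGC, TTTCGCGC, TTTGCCGC and TTTGGCGC for E2F, and TTTGAA for the cell cycle homology region (CHR). RefSeq promoters, from 250 bases before to 50 after the start site, were at hand for 9 of the 10 members in 11 windows, with Cbx2 not among them. The Ezh2 word TTTGGCGC begins 3 bases after the RefSeq start site, and the Suz12 word TTTCCCGC lies at position -219. The annotated gene start of Ezh2 at 47595341 lies outside its window, which ends at 47595280, and was not searched. An E2F word occurs in 2.27% of the 32851 promoters and the CHR word in 17.9%. CHR words were found for Suz12 (position -203), Eed (-197 and -183) and in 1 window of Mtf2 (-200). These matches are letters in a window, no binding was measured, and whether E2F factors bear on the levels of these genes was not tested. Jarid2 held neither kind of word in its windows, which begin at 44730524 and 44731021. Both lie after its annotated gene start at 44729474, which was not searched. Ezh1, Rnf2, Ring1 and Bmi1 held neither kind of word in theirs.

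The core subunits that hold EZH2 in place did not pass in either direction. Suz12 (ENSMUSG00000017548, GRCm38 chr11:79993106-80034123, plus strand) had 92.0, 95.6 and 82.9 CPM in WT and 81.6, 80.0 and 63.7 CPM in the knockout. The knockout libraries were all below WT, with replicate 1 close to the lowest WT library, and the log2 fold change of -0.26 (SE 0.115, 95% interval -0.54 to 0.011) did not pass (adjusted p = 0.121, edgeR). Eed (ENSMUSG00000030619, GRCm38 chr7:89954654-89980983, minus strand), which binds trimethylated H3K27, had 35.7, 35.8 and 34.5 CPM in WT and 41.2, 39.2 and 37.1 CPM in the knockout. All 3 knockout libraries lay above WT, with a log2 fold change of 0.15 (SE 0.0750, 95% interval -0.029 to 0.33) and an adjusted p of 0.167 (edgeR). Without knockout replicate 3 Eed passed (adjusted p = 0.0430, edgeR), in a fit where more of all genes passed than in the main fit.

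Of the accessory subunits, Jarid2 (ENSMUSG00000038518, GRCm38 chr13:44729474-44921643, plus strand), a Jumonji protein without demethylase activity, had 56.9, 63.4 and 60.2 CPM in WT and 35.6, 30.9 and 18.4 CPM in the knockout. The groups did not overlap, and as for Ezh2 the lowest value was that of knockout replicate 3. The means were 60.1 ± 3.28 and 28.3 ± 8.88 CPM (SD, n = 3 each), a log2 fold change of -1.09 (SE 0.227, 95% interval -1.63 to -0.55, adjusted p = 0.0149, edgeR). The fold change was -0.85 without knockout replicate 3 (adjusted p = 2.5e-05), and the call was lost without WT replicate 2 or 3 (adjusted p = 0.0612 and 0.0610, edgeR). Mtf2 (ENSMUSG00000029267, GRCm38 chr5:108065674-108109004, plus strand), which recruits PRC2 to CpG-rich DNA, had 35.7, 40.8 and 33.0 CPM in WT and 32.0, 31.3 and 27.3 CPM in the knockout. Its knockout libraries were all below WT, with a log2 fold change of -0.27 (SE 0.111, 95% interval -0.54 to -0.0093) that did not pass (adjusted p = 0.101, edgeR). Tmed5, on the opposite strand, shares 395 exonic bases with Mtf2 (6.93% of its exonic bases), and whether the counting used strand is not stated, so reads of both genes cannot be told apart there. Likewise 158 exonic bases of Rnf2 overlap Trmt1l, and loci absent from the count table overlap Ezh2, Eed and Suz12 by 174, 261 and 178 bases.

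The PRC1 ligases showed no called difference. Rnf2 (ENSMUSG00000026484, GRCm38 chr1:151458004-151500955, minus strand), the main E3 ligase of H2A, had 71.8, 71.2 and 66.5 CPM in WT and 75.0, 75.0 and 69.4 CPM in the knockout, overlapping groups with a log2 fold change of 0.067 (SE 0.0721, 95% interval -0.10 to 0.24, adjusted p = 0.498, edgeR). Ring1 (ENSMUSG00000024325, GRCm38 chr17:34020792-34024680, minus strand), its paralogue, had 22.7, 13.6 and 16.5 CPM in WT and 12.4, 13.3 and 22.5 CPM in the knockout. Its libraries scattered widely in both groups, with knockout replicate 3 as high as WT replicate 1, and the log2 fold change of -0.13 (95% interval -0.81 to 0.54, adjusted p = 0.741, edgeR) changed sign without WT replicate 1 (0.09) or knockout replicate 1 (0.03). Rnf2 made up 80.4% to 87.1% of the summed RPKM of the pair in WT and 79.9% to 88.7% in the knockout. Bmi1 (ENSMUSG00000026739, GRCm38 chr2:18677018-18686629, plus strand), the PCGF subunit that represses Cdkn2a in fibroblasts, had 51.5, 46.1 and 46.2 CPM in WT and 49.6, 51.2 and 53.0 CPM in the knockout. The groups overlapped and the log2 fold change was 0.098 (SE 0.0772, 95% interval -0.086 to 0.28, adjusted p = 0.357, edgeR).

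Cbx2 (ENSMUSG00000025577, GRCm38 chr11:119022962-119031270, plus strand), a chromodomain reader of PRC1, had 29.1, 29.9 and 28.5 CPM in WT and 14.5, 12.8 and 9.86 CPM in the knockout. The groups did not overlap, and knockout replicate 3 was again the lowest. The means were 29.1 ± 0.693 and 12.4 ± 2.33 CPM (SD, n = 3 each), a log2 fold change of -1.23 (SE 0.146, 95% interval -1.58 to -0.89, adjusted p = 0.00369, edgeR). Every 1-library omission kept it past the threshold (log2 fold change -1.36 to -1.09), as did the other 7 alternatives tried. Within the CBX family its share of the summed RPKM was 12.8 ± 0.527% in WT and 6.99 ± 1.19% in the knockout. Cbx6 held 69.7% and 73.1%, and Cbx8 5.26% and 7.43%, in the same order.

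**Figure D3:**
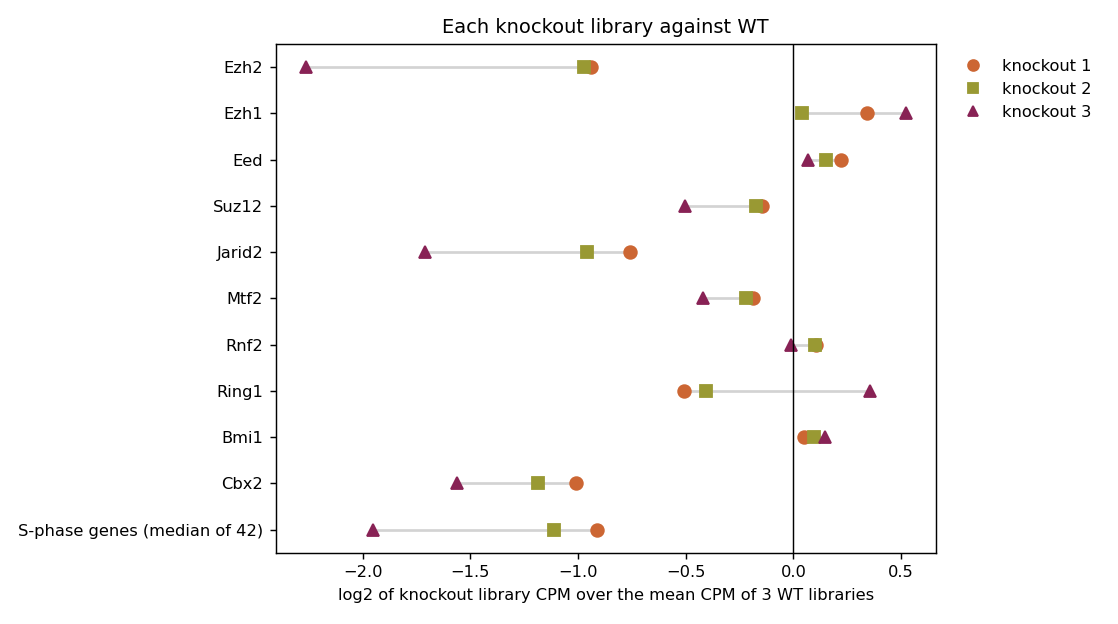
log2 ratio of each knockout library's CPM to the mean of the 3 WT libraries for the 10 genes, with the median of 42 S-phase genes in the bottom row. Knockout replicate 3 (triangles) lies lowest for Ezh2 (-2.26), Jarid2 (-1.71), Cbx2 (-1.56) and the S-phase genes (-1.95), and replicates 1 and 2 lie between -0.76 and -1.18 in those rows.

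Genes of DNA replication were lower in the same libraries as Ezh2, Jarid2 and Cbx2. Knockout replicate 3, lowest for those genes and for the S-phase median, stood apart over the whole table. It was also lowest for Suz12 and Mtf2, and the share of all lowered genes with this order was not counted. Of 42 S-phase genes tested, 40 fell and 0 rose, and for all 42 every knockout library lay under every WT library, beside 16.6% of all genes that passed as lower and 28.2% with such a separation. Their summed CPM was 2102 to 2206 in WT and 1191, 1066 and 632 in the knockout libraries in order. Their median log2 fold change was -1.31. The log2 ratios to the WT mean in knockout replicates 1 to 3 were -0.94, -0.97 and -2.26 for Ezh2, -0.76, -0.96 and -1.71 for Jarid2 and -1.01, -1.18 and -1.56 for Cbx2, beside -0.91, -1.11 and -1.95 for the S-phase median. Pcna, the sliding clamp of DNA polymerase, had 99.6, 109 and 97.1 CPM in WT and 54.8, 54.1 and 35.7 CPM in the knockout (log2 fold change -1.08, adjusted p = 0.00699, edgeR). Mki67, a marker of cycling cells, had 412 to 472 CPM in WT and 153, 128 and 32.5 CPM in the knockout (log2 fold change -2.08, adjusted p = 0.0239, edgeR). The part of cycling cells in the Polycomb differences was not tested. Across the 6 libraries the log2 CPM most like that of Ezh2 belonged to Ltbp4, Dnmt1, Usp1, Spock2 and Topbp1 (Pearson r of 0.9991 to 0.9995, a description over 6 libraries that share the genotype difference). Dnmt1 maintains DNA methylation, Topbp1 and Usp1 act in replication and its checkpoints, and Ltbp4 and Spock2 encode extracellular matrix proteins.

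Per length, the levels of the 10 genes changed order between genotypes. In WT the mean RPKM was 23.7 for Ezh2, 21.8 for Rnf2, 20.6 for Suz12, 16.1 for Eed and 13.3 for Bmi1, followed by Jarid2 at 10.03, Mtf2 at 8.59, Cbx2 at 7.63, Ezh1 at 6.00 and Ring1 at 4.25. In the knockout Rnf2 led at 22.8, Ezh2 stood at 9.80, below Eed (17.8), Suz12 (17.2) and Bmi1 (14.3), and Ring1 (3.88) and Cbx2 (3.24) had the lowest means. Those 2 did not keep an order in RPKM, as Ring1 lay below Cbx2 in knockout replicates 1 and 2 and above it in replicate 3. In the deposited FPKM Ring1 lay above Cbx2 in every knockout library. There Cbx2 (3.17) again had the lowest knockout mean, but Jarid2 (5.47) came next, below Ring1 (6.99). Gene lengths set this scale, and in the deposited FPKM Rnf2 (28.8) already stood above Ezh2 (24.8) in WT, and Ezh1 (6.44) rather than Ring1 (7.52) was the lowest, so the order of those neighbours is not settled by the data.

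Other PRC2 genes were listed beside the members, 8 in all, of which 5 were in the table (Phf1, Lcor and Ezhip were not analysed here). Of these 2 fell, 1 rose and 2 did not pass, where 16.6% of all genes passed as lower and 16.4% as higher. Each of the 3 calls was lost without any 1 of the WT libraries. Those omissions also cut the calls over all genes, from 2218 lower and 2195 higher to 994 and 953, 833 and 782, and 702 and 694. Epop, an accessory subunit, had 21.8, 19.1 and 18.6 CPM in WT and 11.5, 9.07 and 4.62 CPM in the knockout, with a log2 fold change of -1.24 (SE 0.301, adjusted p = 0.0232, edgeR). Phf19, a Polycomb-like relative of Mtf2, had 4.56, 4.32 and 5.03 CPM in WT and 2.86, 1.76 and 1.57 CPM in the knockout (log2 fold change -1.17, adjusted p = 0.0214, edgeR). The calls of Epop and Phf19 were also lost without knockout replicate 2 (adjusted p = 0.0512 and 0.0594, edgeR), and over all their omissions of a WT library the adjusted p was 0.0670 to 0.0860. Aebp2, which stabilises a PRC2 form lacking Epop and Mtf2-type subunits, had 121, 125 and 112 CPM in WT and 161, 145 and 149 CPM in the knockout and rose (log2 fold change 0.35, adjusted p = 0.0169, edgeR, and 0.0542 to 0.0767 with a WT library left out). Rbbp4 and Rbbp7, the histone-binding subunits, did not pass (log2 fold changes -0.28 and -0.23, adjusted p 0.0951 and 0.191).

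The 23 other PRC1 genes tested gave 7 lower, 3 higher and 13 that did not pass, where 16.6% and 16.4% of all genes passed in those directions, with a median log2 fold change of -0.25. Pcgf3, a PCGF paralogue of Bmi1 found in PRC1 forms without CBX proteins, rose from 137, 138 and 125 CPM to 200, 193 and 206 CPM (log2 fold change 0.58, SE 0.0709, adjusted p = 0.00387, edgeR). Its share of the summed RPKM of the PCGF family went from 29.9 ± 1.13% to 41.8 ± 0.861%, while that of Bmi1 was 23.7% in both groups. Pcgf2, the closest paralogue of Bmi1, went from 45.5, 41.6 and 42.7 CPM to 31.7, 34.1 and 34.4 CPM (log2 fold change -0.37, adjusted p = 0.0147, edgeR). Bcor, a subunit of the PCGF1 complex, went from 84.6, 86.0 and 87.98 CPM to 56.1, 64.1 and 46.4 CPM (log2 fold change -0.63, adjusted p = 0.0113, edgeR), and Cbx6 from 252, 234 and 242 CPM to 200, 192 and 197 CPM (log2 fold change -0.30, adjusted p = 0.0156, edgeR). Of these, Pcgf3 passed under every alternative. Pcgf2 did not pass with the replicate number as a block (adjusted p = 0.0509) or without WT replicate 1 or 3 (0.0621 and 0.0587), Cbx6 without any 1 WT library or knockout replicate 2 (0.0509 to 0.0705), or Bcor without WT replicate 3 (0.0546, edgeR). None of the 23 met the study's thresholds. Of 8 genes that oppose Polycomb, among them the H3K27 demethylases Kdm6a and Kdm6b, 0 passed in edgeR, with 2 lower at an unadjusted p under 0.05 and 1 passing in DESeq2 and in the exact test. Kdm6b had the lowest adjusted p of the 8 (log2 fold change -0.46, adjusted p = 0.0551, edgeR), and Kdm6a had 0.26 (adjusted p = 0.369, edgeR).

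**Figure D4:**
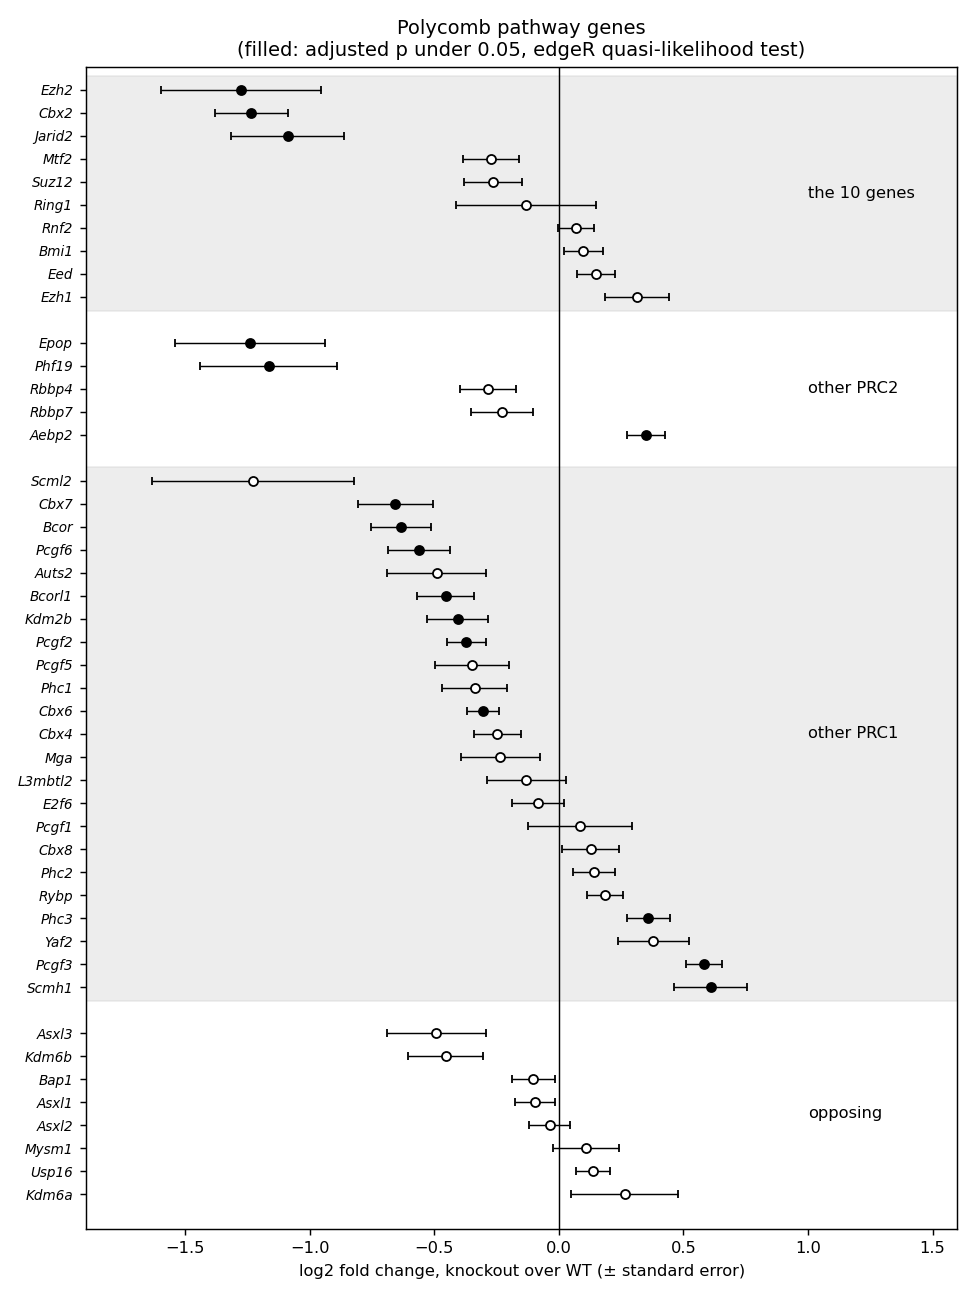
log2 fold change of knockout over WT (horizontal axis, ± SE from edgeR) for the 10 members, other PRC2 and PRC1 genes and opposing genes, with filled points where the adjusted p was under 0.05. Filled points lie on the left for 3 members, 2 other PRC2 and 7 other PRC1 genes, and on the right for 0 members, 1 other PRC2 gene (Aebp2) and 3 other PRC1 genes (Pcgf3, Scmh1 and Phc3).

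Among known Polycomb targets, 23 were listed, 16 were in the table and 9 were tested, of which 1 rose, beside 16.4% of all genes, and 8 did not pass. That 1 was Cdkn2b (ENSMUSG00000073802, GRCm38 chr4:89306299-89311039, minus strand), which encodes the cell cycle inhibitor p15. It had 31.0, 26.9 and 33.0 CPM in WT and 65.0, 68.3 and 103 CPM in the knockout, 260% of the WT mean, with no overlap (log2 fold change 1.38, SE 0.194, 95% interval 0.92 to 1.84, adjusted p = 0.00548, edgeR). It passed under all 13 alternatives. Cdkn2a (ENSMUSG00000044303, GRCm38 chr4:89274471-89294653, minus strand), whose transcripts encode p16 and p19ARF, had 77.5, 78.6 and 81.4 CPM in WT and 86.5, 91.1 and 157 CPM in the knockout. Its knockout libraries were all above WT, chiefly replicate 3, and the log2 fold change of 0.50 (SE 0.226) did not pass (adjusted p = 0.134, edgeR), while without knockout replicate 3 it was 0.17 (adjusted p = 0.0372). The median log2 fold change of the 9 targets was -0.57 (6 negative and 3 positive values), with 2 lower and 1 higher at an unadjusted p under 0.05 (edgeR). The knockout libraries were all below WT for 4 of them, Msx1 (log2 fold change -2.09), Lhx2 (-2.08), Cdkn1c (-1.39) and Gata6 (-0.38), none of which passed. They were all above WT for 2, Cdkn2a and Cdkn2b. Over all genes tested, 28.2% separated downwards and 26.6% upwards.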

How the data were processed

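RNA-seq libraries of 3 WT and 3 Rnf20 knockout samples were grouped by genotype from the labels. According to the study's methods, stranded poly(A) libraries were sequenced on an Illumina instrument and aligned with HISAT2 2.1.0 to GRCm38/mm10. The authors deposited raw counts per gene (whole numbers, not normalized), and the authors also deposited FPKM values computed with Cufflinks 2.1.1 for 12633 genes. The counting program and its strand setting are not given in the sources used here. The deposited table with FPKM also holds fold changes and p-values of the authors' own comparison, which were not used. The count table has 464 predicted loci without an Ensembl identifier.

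In R 4.3.3, counts were normalized by TMM and filtered with filterByExpr, which left 13386 genes. Genotypes were compared by edgeR 4.0.16 (quasi-likelihood test, no covariates, Benjamini-Hochberg adjustment), with an adjusted p under 0.05 counted as passing, the level the study states for its other assays, and with its RNA-seq thresholds as a second rule. The alternatives tried were other size factors (RLE), scaling by library size only, other filters, DESeq2 1.42.0, edgeR's exact test, a replicate block and each library left out in turn. The deposited FPKM as an alternative for the paralogue ratio was chosen after seeing the data. Tests were tested on simulated data. Those data had the same relative spread for all genes and no library set apart, so a library such as knockout replicate 3 was not covered. The floor of 3 counts covers counting error only, since PCR duplicates cannot be told apart. Positions and overlaps came from the GRCm38 annotation.

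The members and lists were chosen with earlier results of these data known. The genes named are Rnf20, the 10 members, Cdkn2a, Cdkn2b, Mki67, Pcna, up to 4 passing genes of lowest adjusted p per list and the 5 genes most like Ezh2. Ddx3y, the other PCGF and CBX paralogues, the genes overlapping members, unpassed Rbbp4 and Rbbp7, Kdm6a and Kdm6b, Scmh1, Phc3, Msx1, Lhx2, Cdkn1c, Gata6, the marker genes and the listed genes not analysed here were named outside that rule after their values were seen.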

Additional observations from a re-analysis of the deposited data

How the results depend on the processing

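Ezh2, Jarid2 and Cbx2 kept their direction under all 13 alternatives, passing in 10, 11 and 13 of them. Of the 10 members, 3 passed as lower in edgeR's quasi-likelihood test, against 1 at an adjusted p under 0.01 and 1 by the study's thresholds. Leaving out a library gave 1 to 3 lower and 0 to 1 higher. Over all genes, 2218 lower and 2195 higher became 655 and 667 at 0.01, 279 and 201 by the study's thresholds, and 702 to 3280 and 694 to 3230 with a library left out. The other PRC2 genes that passed (3) became 0 at 0.01 and 0 by the study's thresholds, and 0 to 4 with a library left out. The other PRC1 genes (10) became 1 at 0.01, 0 by the study's thresholds and 1 to 14 with a library left out. The opposing genes (0) became 1 with library size only, 1 with DESeq2, 1 with the exact test and 0 to 3 with a library left out. The targets (1) became 2 with the exact test and 1 to 5 with a library left out. The S-phase genes (40) became 19 at 0.01, 14 by the study's thresholds and 19 to 42 with a library left out. Fewer libraries and stricter thresholds are part of these settings, and beyond that the cause was not tested. Ring1 ranged from -0.45 to 0.09 (log2) with a library left out, reversed at 0.0895 without WT replicate 1 and 0.0307 without knockout replicate 1.

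Same-numbered libraries of the genotypes were not paired by the labels, and their deviations correlated at -0.066, 0.037 and 0.011. With the replicate number as a block, 1490 genes passed as lower and 1385 as higher, 6 of the other PRC1 genes and 1 opposing gene passed, and the 3 members that fell still did. Scaling by library size alone shifted the median of all genes by -0.060. These libraries measure RNA, and the study's protein and histone assays were not analysed here.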
